A study of Homo sapiens with 12 samples.

Results

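The genes described here encode the cap-binding complex eIF4F, its cofactor eIF4B and the 4E-BP proteins that hold it back. The members were chosen by gene symbol: EIF4E, EIF4E2, EIF4EBP1, EIF4EBP2, EIF4G1, EIF4G2, EIF4G3, EIF4A1, EIF4A2 and EIF4B, 10 of the 20212 protein-coding genes in the deposited count table. They were read in PANC-1, an established human pancreatic cancer cell line labelled as pancreatic duct and grown in DMEM with serum, which the study took as a line that lacks the 4EBP1 protein. DMSO-treated cultures, the vehicle controls, were compared with cultures treated with 50 nM rapamycin for 60 min, with 3 replicates of each. Every replicate gave a library of ribosome footprints (RF) and a library of total RNA, which makes 12 libraries in all. The comparison asks whether mTORC1 inhibition changed the translation of these genes. The labels number the replicates and do not say that they came from separate cultures, so the p-values measure the spread between these samples, which may be technical. All of the values come from a single cell line.

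The eIF4F complex loads the small ribosomal subunit onto most mRNAs. Its cap-binding subunit eIF4E grips the 5′ cap, the eIF4G scaffold bridges eIF4E to the ribosome through eIF3, and the RNA helicase eIF4A, helped by eIF4B, unwinds the 5′ UTR. The 4E-BPs occupy the surface of eIF4E that eIF4G needs, and phosphorylation by mTORC1 releases them, so rapamycin can act on this machinery through its proteins. Whether the mRNAs of the machinery also change in translation is what RF and total RNA report on. Translation efficiency (TE) is RF over total RNA.

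The short conserved stretches below show what the members share and where paralogues differ. The eIF4E-binding motif is what lets the 4E-BPs and eIF4G compete for the same surface. It was searched in frame as a tyrosine codon followed, 5 codons on, by a leucine codon and a leucine or methionine codon, and with an aspartate after the tyrosine it was present once in the coding sequences of EIF4EBP1, EIF4EBP2, EIF4G1 and EIF4G3 and absent from the other 6 members, EIF4G2 among them. Each 30-base stretch is reference sequence read from the GENCODE transcripts of GRCh37, written 5′ to 3′, with the codons of the motif in capitals. They lie at chr10:72179681-72179710 on the plus strand (EIF4EBP2), chr3:184040644-184040673 on the plus strand (EIF4G1) and chr1:21221930-21221959 on the minus strand (EIF4G3), each within 1 coding exon.
EIF4EBP2: attTATgacagaaagtttCTGTTGgatcgt
EIF4G1: cgtTACgaccgtgagttcCTGCTTggtttt
EIF4G3: cagTATgacagggagtttCTGCTGgacttc
EIF4EBP2 and EIF4G3 matched at 20 of the 30 bases, as did EIF4G1 and EIF4G3, and EIF4EBP2 and EIF4G1 matched at 18.

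The helicases EIF4A1 and EIF4A2 are close enough that footprints could be hard to assign. Their DEAD box, the catalytic motif of this helicase family, is given in capitals within 30 coding bases at chr17:7480394-7480423 and chr3:186503973-186504002 of GRCh37, both on the plus strand.
EIF4A1: tttgtactgGATGAAGCTGACgaaatgtta
EIF4A2: tttgttttgGATGAAGCAGATgaaatgttg
These stretches matched at 25 of 30 bases, and over the whole coding sequence the pair shared 76.5% of aligned bases, yet 0 of their 28-base windows (the usual size of a footprint) were identical between them. The other paralogues were further apart, with 64.5% identity for EIF4EBP1 and EIF4EBP2, 55.7% for EIF4G1 and EIF4G3 and 46.6% for EIF4E and EIF4E2.

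Terminal oligopyrimidine (TOP) mRNAs begin with a C and a run of pyrimidines, and their translation is known to be sensitive to mTORC1. A start of C followed by at least 4 more pyrimidines on the sense strand was searched at RefSeq start sites. Of the 14 such sites of 9 members, 2 had it, those of EIF4A2 and EIF4B. Of all 35116 RefSeq start sites with a full-length entry, 4.07% had it. The first 20 bases of both, and those of EIF4A1, whose run is shorter, are given with the pyrimidine run in capitals. They come from RefSeq on GRCh38.p14, another build than that of the counts, at chr3:186783577-186783596, chr12:53006456-53006475 and chr17:7572825-7572844, all on the plus strand, and equal the 5′ ends of the GENCODE transcripts used here.
EIF4A2: CTTTTCagtcgggcgctgag
EIF4B: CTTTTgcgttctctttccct
EIF4A1: CCTagtttctaaggatcatg
A match of letters is a description of the annotated start and not a measured start in these cells.

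The RF libraries were shallow and uneven, with 278835 to 1574723 counts, against 78081241 to 94293744 counts in the total RNA libraries. In CPM, which are counts relative to library size scaled by TMM factors, the 3 counts that an observed 0 still allows are 2.03 to 9.93 in the RF libraries, for counting error only. The biological coefficient of variation was 54.9% in RF and 5.31% in total RNA. The epithelial keratins KRT8, KRT18 and KRT19 were abundant in every library (1326 to 1765 FPKM, fragments scaled to transcript length and library size), KRT7 was low (9.83 to 12.02 FPKM), and the acinar, islet and immune markers PRSS1, CPA1, CEL, CELA3A, INS, GCG and PTPRC stayed at or below 0.272 FPKM. In counts simulated with a coefficient of variation of 50% in RF and 6% in total RNA, 22% of 200 genes that were changed 4-fold passed the TE test over 13329 genes, and 99.5% passed the total RNA test. The TE test also called 24 unchanged genes beside the 44 changed ones, so 35.3% of its calls at an adjusted p of 0.05 were false, against 2.93% in total RNA, and its p-values are therefore too small in such data.

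At the RNA level the machinery was abundant, and its members lay far apart in a nearly fixed order. The scaffold EIF4G2, which resembles the C-terminal part of eIF4G and takes part in other modes of initiation, was highest, with 804 ± 9.62 FPKM in DMSO (SD, n = 3). The helicase EIF4A1 followed at 561 ± 11.6 FPKM, then the main scaffold EIF4G1 at 227 ± 4.24, EIF4A2 at 213 ± 3.50 and EIF4B at 169 ± 3.88. The cap-binding EIF4E stood at 65.4 ± 2.84 FPKM. EIF4G3 and the cap-binding paralogue EIF4E2 lay side by side at 46.1 ± 1.51 and 45.6 ± 1.89 FPKM, with overlapping DMSO ranges. The 4E-BPs were lowest, EIF4EBP1 at 30.4 ± 1.25 FPKM and EIF4EBP2 at 10.6 ± 0.298. Each neighbour in this order was above the next in 6 of 6 cultures, and EIF4G3 and EIF4E2 were the neighbours whose DMSO ranges overlapped. Against the median of 11.1 FPKM over 13322 genes, EIF4EBP2 was near the middle (48.9th percentile), EIF4EBP1 at the 76.8th and EIF4G2 at the 99.5th.

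The annotated transcripts to which the FPKM was assigned differed in kind. EIF4A2 stood apart, since a mean of 13.1% of its FPKM in DMSO was on transcripts annotated as protein coding, against 58.7% on retained-intron transcripts and 28.2% on transcripts annotated for nonsense-mediated decay. Among the DMSO libraries its retained-intron share was 60.5%, 57.9% and 57.8%, and among the rapamycin libraries 56.8%, 57.1% and 56.6%. Each rapamycin share was below each DMSO share, by 1.89 percentage points on average (two-sided exact permutation p = 0.1, the smallest that 3 against 3 allows). EIF4B and EIF4G3 went the other way at the same p. EIF4B had 2.95%, 3.64% and 3.79% on retained-intron transcripts in DMSO and 4.02%, 4.77% and 4.54% in rapamycin, and EIF4G3 had 2.13%, 1.33% and 1.45% against 2.18%, 4.21% and 2.17%. Of the 8 members with such a share, 1 was thus lower and 2 were higher without overlap, where 3.95% of 6603 genes were lower and 7.00% higher. EIF4EBP1 had a mean of 36.6% on its coding transcript EIF4EBP1-201 and 63.4% on EIF4EBP1-202, whose coding sequence is not defined in the annotation. EIF4EBP2 had 1 annotated transcript, and the other 7 members had means between 85.6% and 95.6% on coding transcripts. Short non-coding transcripts weigh more in FPKM than in reads, so these shares are per length and not shares of reads. They are shares of the FPKM summed over the isoforms found in the annotation used here.

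**Figure D1:**
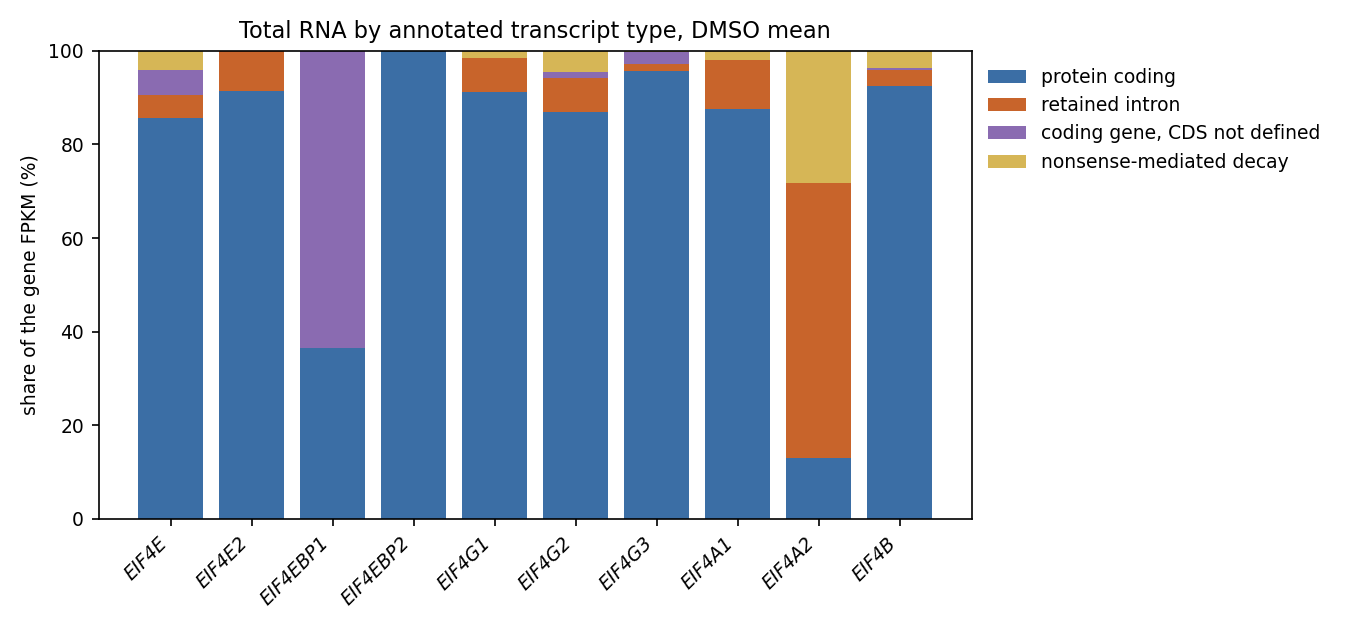
Share of each gene's total RNA FPKM (y axis, %) on transcripts of each annotated type, for the 10 genes (x axis). Bars are means of the 3 DMSO libraries, and FPKM is summed over the isoforms found in the annotation used here. Coding transcripts hold 13.1% in EIF4A2 and 36.6% in EIF4EBP1, and between 85.6% and 100% in the others.

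Of the 107 member isoforms with a mean of at least 1 FPKM, 7 had a lower and 2 a higher share of their gene in every rapamycin library than in every DMSO library, where 4.92% and 5.32% of 31292 isoforms of all genes did so. Of the 9 isoforms, 8 are annotated as retained introns, of EIF4A1, EIF4A2, EIF4B, EIF4G1 and EIF4G2, and the remaining one is EIF4A1-209. This coding isoform held 9.57%, 9.34% and 9.23% of EIF4A1 in DMSO and 8.93%, 8.31% and 7.51% in rapamycin. These isoform shares are of the FPKM summed over the gene's annotated isoforms with a mean of at least 1 FPKM. The differences ran from 0.0770 to 1.16 percentage points in size. Both isoforms with a higher share in rapamycin are retained introns of EIF4A1, so the retained introns did not move in a single direction. The share of retained introns among the 107 member isoforms was not counted. Whether 8 of 9 is more than that share was therefore not tested.

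RF counts were dominated by the scaffolds. EIF4G2 held 54.1% and EIF4G1 23.8% of the members' 8896 RF counts over the 6 libraries, and the 4E-BPs together supplied 83 (EIF4EBP1) and 48 (EIF4EBP2). Per kilobase of coding sequence, the RF density in DMSO was 344 ± 25.4 CPM per kb for EIF4G2, 93.3 ± 14.8 for EIF4G1, 84.5 ± 11.3 for EIF4A2, 61.1 ± 46.5 for EIF4E2, 59.9 ± 36.4 for EIF4A1, 42.8 ± 8.91 for EIF4B, 37.8 ± 8.81 for EIF4E, 28.2 ± 2.94 for EIF4EBP2, 26.9 ± 27.5 for EIF4EBP1 and 9.98 ± 1.71 for EIF4G3 (SD, n = 3). EIF4G2 and EIF4G1 were the neighbours in this order whose DMSO ranges did not overlap. EIF4G3, a paralogue of EIF4G1, had the lowest density although its RNA was above that of 3 other members. Its length is that of EIF4G3-201, with 4758 coding bases, since the isoform with a slightly higher FPKM, EIF4G3-208, is annotated with an incomplete coding sequence.

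This order rests on how much of each gene can be read by unique alignment. The authors counted uniquely aligned reads, and the share of 28-base coding windows with no exact copy elsewhere in GRCh37 was 12.5% in EIF4B, 19.7% in EIF4E, 30.7% in EIF4A1 and 68.3% in EIF4A2. It was 89.6% in EIF4E2, 95.5% in EIF4EBP2, 99.8% in EIF4G1 and 100% in EIF4EBP1, EIF4G2 and EIF4G3. With the RF CPM divided by the length of unique windows instead, a choice made after seeing the data, EIF4B moved up to 346 ± 72.1 CPM per kb, level with EIF4G2 at 348 ± 25.7. EIF4E came to 200 ± 46.6 and EIF4A1 to 199 ± 121, both above EIF4A2 at 126 ± 16.8 and EIF4G1 at 94.0 ± 14.9. EIF4G3 stayed lowest at 10.0 ± 1.72. In the comparison of treatments each gene is set against itself, over the same windows.

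**Figure D2:**
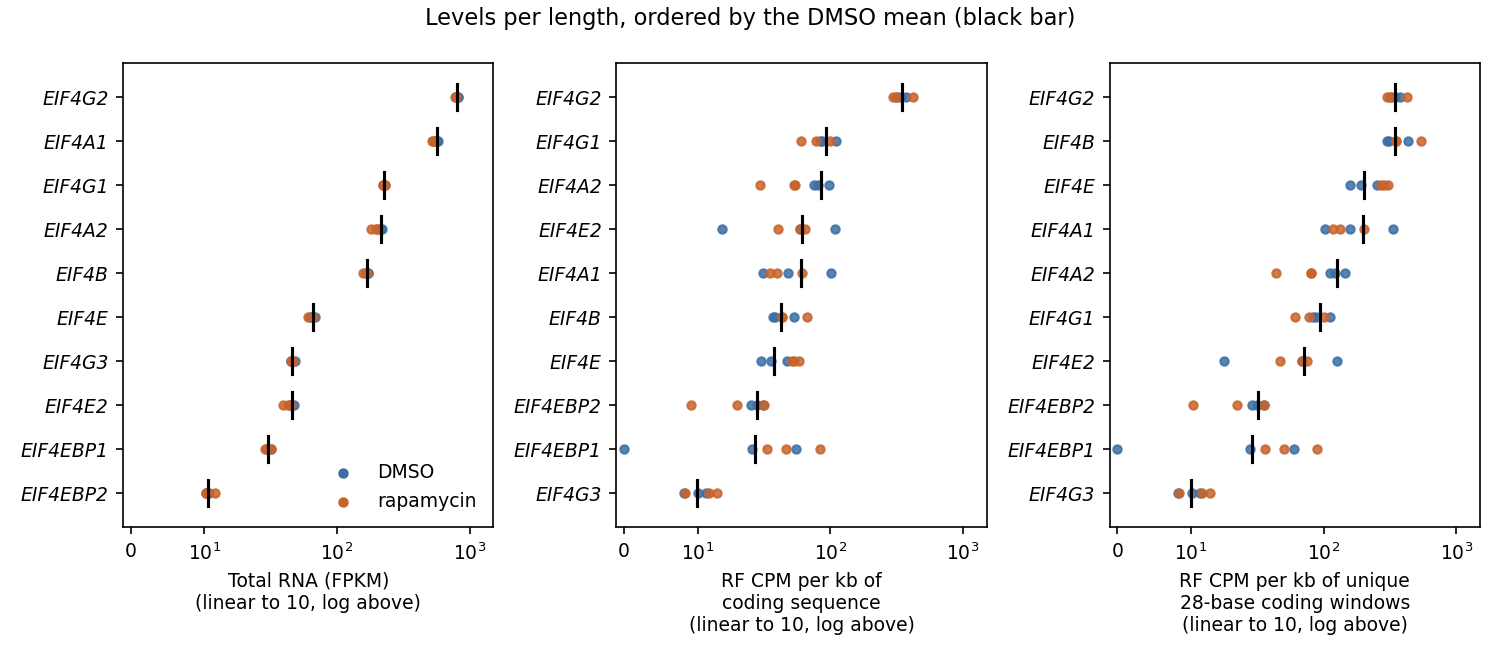
Levels of the 10 genes per culture, as total RNA in FPKM (left), RF CPM per kb of coding sequence (middle) and RF CPM per kb of unique 28-base coding windows (right), each on an axis that is linear to 10 and logarithmic above. Points are cultures, black bars are DMSO means, and each panel is ordered by that mean: EIF4B and EIF4E stand higher in the right panel than in the middle one.

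For EIF4A1, the total RNA count and the FPKM were also at odds. Its raw RNA counts over the fragment counts of cuffnorm came to 0.446, against a median of 2.47 over 11054 genes (percentile 0.371 of all genes), while the other members lay between 2.10 and 2.72. In the annotation used here, the readthrough gene SENP3-EIF4A1, which has no entry in the count table, covers 28.2% of the exon bases of EIF4A1. Whether this overlap or the repeated windows account for the gap was not tested, and the level and the TE of EIF4A1 relative to other genes are uncertain for that reason.

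In DMSO, the mean log2 TE of each of the 10 members lay below the median of all genes, which was -0.52 over 13329 genes. It was lowest in EIF4B at -2.81 ± 0.26 (percentile 3.29) and EIF4EBP2 at -2.64 ± 0.10 (percentile 4.45), and highest in EIF4E2 at -1.14 ± 1.34 (percentile 32.2). This TE has no length in it. EIF4EBP2 combines a coding sequence of 363 bases with a 3′ UTR of 6871 bases, and RF cover the coding part while total RNA covers the whole transcript. With RF per coding kb over FPKM, the order turned, and EIF4EBP2 became the highest of the members at 2.66 ± 0.226 in DMSO, above EIF4E2 in 4 of 6 cultures. Over unique windows the order turned again, with EIF4E at 3.06 ± 0.712 and EIF4EBP2 at 3.01 ± 0.255 in DMSO, and EIF4B, lowest without length, came next at 2.04 ± 0.401.

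Rapamycin left no member past the threshold. None of the 13329 genes tested, and so none of the 10 members, passed an adjusted p of 0.05 in TE, RF or total RNA (two-sided quasi-likelihood test of edgeR, adjusted by Benjamini-Hochberg). At an unadjusted p under 0.05, TE was lower in rapamycin for 1 member, EIF4A2, and higher for 0, where 6.42% of all genes were lower and 6.17% higher. In RF, EIF4A2 was again the 1 member lower and 0 were higher, where 1.92% of all genes were lower and 1.76% higher. The members had a median log2 change of 0.07 in TE, against -0.06 for all genes, and the change was negative for 4 of the 10. DESeq2's Wald test on the same counts called 685 genes higher and 622 lower in TE. EIF4A2 was the 1 member among them (log2 fold change -0.95, adjusted p = 0.000222). The same test called 0 members in RF or total RNA, and in RF alone EIF4A2 had a log2 change of -0.91 (adjusted p = 0.9995). DESeq2's test was not run on the simulated counts, so its rate of false calls in such data is not known. In these bulk cultures, fewer cells that express a gene and less of its RNA per cell cannot be told apart. Without DMSO replicate 3, the edgeR test called 65 genes higher and 331 lower, with 0 members among them.

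**Figure D3:**
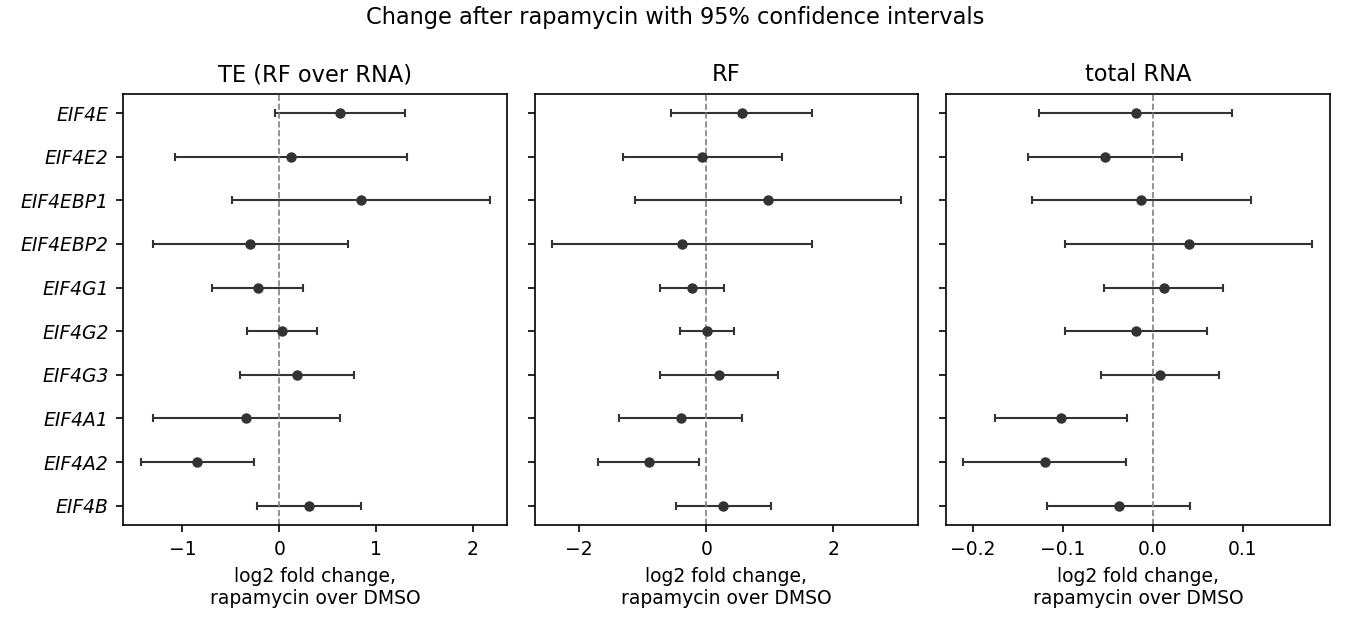
Log2 fold change of rapamycin over DMSO in TE, RF and total RNA (x axes, which differ in range) for the 10 genes (y axis), with 95% confidence intervals from the edgeR fit. In TE and RF the interval of EIF4A2 lies below 0, and in total RNA those of EIF4A1 and EIF4A2 do. No adjusted p passed 0.05.

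The helicase EIF4A2 had the smallest p of the members in TE and in RF. Its gene lies at chr3:186500994-186507686 of GRCh37. Its RF CPM was 92.3, 99.6 and 119 in DMSO replicates 1, 2 and 3 and 36.2, 65.9 and 66.2 in rapamycin replicates 1, 2 and 3, from 30, 79 and 176 counts and 44, 55 and 20 counts. Every rapamycin culture was below every DMSO culture, and the RF level in rapamycin replicate 1 was the lowest. The log2 TE was -2.05, -1.96 and -1.71 in DMSO and -3.30, -2.32 and -2.43 in rapamycin, again with no overlap. The fitted change in TE was 0.556-fold (log2 -0.85, SE 0.27, 95% interval -1.43 to -0.26, unadjusted p = 0.00765, adjusted p = 0.244, edgeR), and in RF alone it was 0.534-fold (log2 -0.91, SE 0.37, unadjusted p = 0.0274 and adjusted p = 0.9999). The TE fit gives RF and total RNA of a gene a shared dispersion, and its common coefficient of variation over all genes was 24.4%, below the 54.9% of RF alone. The TE of EIF4A2 stayed lower at an unadjusted p under 0.05 in each of the 14 alternatives, with log2 values from -1.10 to -0.51. The smallest of these in size came without rapamycin replicate 1. In RF alone, the log2 change ran from -1.06 to -0.65 over the cultures left out, and its unadjusted p was above 0.05 without DMSO replicate 3 and without rapamycin replicate 1.

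Its close paralogue EIF4A1, at chr17:7476142-7482324, had RF CPM of 58.4, 37.8 and 123 in DMSO and 48.6, 74.3 and 43.0 in rapamycin. These overlapped, and DMSO replicate 3 held 182 of the 365 counts. The log2 change in TE was -0.34 with an interval from -1.30 to 0.63, and without DMSO replicate 3 it turned to 0.44. The difference between the responses of the 2 helicases was not tested.

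EIF4B, which stimulates the helicase and like EIF4A2 begins with a pyrimidine run, is the other member compared with it here. Its RF CPM was 67.7, 70.6 and 97.4 in DMSO and 123, 79.1 and 79.5 in rapamycin. The rapamycin values spread across the DMSO range and above it. The log2 change in TE was 0.30 (interval -0.23 to 0.84, adjusted p = 0.655, edgeR), so the 2 members with such a start gave values on opposite sides of 0, and the difference between them was not tested.

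The cap-binding protein EIF4E, at chr4:99800427-99850284, is the target the 4E-BPs compete for. Its RF CPM was 33.8, 21.4 and 25.7 in DMSO and 41.1, 38.3 and 36.4 in rapamycin, from 11 to 50 counts per library. Every rapamycin culture was above every DMSO culture, in RF CPM and in log2 TE (exact permutation p = 0.1 for each). In RF CPM such an order above was seen in 1 of 10 members against 5.17% of all genes, and such an order below in 1 of 10, EIF4A2, against 4.30%. In log2 TE, the corresponding shares of all genes were 4.70% above and 6.32% below, again with 1 member each. The fitted change in TE was 1.54-fold (log2 0.63, SE 0.31, interval -0.04 to 1.30, unadjusted p = 0.0649, adjusted p = 0.428, edgeR). It was positive in each of the 14 alternatives, from 0.55 to 0.82 on the log2 scale, and in RF alone it was 0.56 (interval -0.55 to 1.66).

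The second cap-binding protein, EIF4E2, binds the cap weakly and is known for translational repression. Its RF CPM ran from 11.4 to 80.0 in DMSO and from 29.8 to 47.9 in rapamycin, so the DMSO cultures differed among themselves by more than the treatments did. The log2 change in TE was 0.12 with an interval from -1.08 to 1.31.

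The 4E-BPs were too sparsely covered for a comparison of TE. The RF libraries of DMSO replicates 1, 2 and 3 held 3, 0 and 29 counts of EIF4EBP1 and those of rapamycin 36, 10 and 5, which is 9.23, 0 and 19.6 CPM and 29.6, 11.98 and 16.6 CPM. The count of 0 in DMSO replicate 2 allows up to 3.78 CPM, and the ranges of the treatments overlap. The fitted log2 change in TE was 0.84 (interval -0.49 to 2.17), and it was 3.02 without DMSO replicate 3 (unadjusted p = 0.00996, adjusted p = 0.105, edgeR), when 3 RF counts remain in DMSO. Its total RNA was well measured, at 23.2, 21.0 and 21.5 CPM in DMSO and 20.7, 22.5 and 21.9 in rapamycin. Its mRNA was present in each library, and RF counts were above 0 in 5 of 6 RF libraries. The loss that the study reported is of the protein, which RNA and RF do not measure. CDKN2A, a gene known to be deleted in PANC-1, was at most at 0.885 FPKM but gave 385 RF counts over the 6 RF libraries, more than EIF4EBP1, and the part of such stray reads in the sparse counts was not tested.

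EIF4EBP2, the paralogue with the same motif, was covered by 3, 9 and 15 footprints in DMSO and by 14, 6 and 1 in rapamycin. In CPM these were 9.23, 11.4 and 10.1 against 11.5, 7.19 and 3.31, which overlap. The log2 change in TE was -0.30 with an interval from -1.30 to 0.71.

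The scaffolds carried enough footprints for narrower intervals. EIF4G2 had RF CPM of 935, 870 and 1009 in DMSO and 1145, 814 and 854 in rapamycin, which overlap around the same mean (938 ± 69.3 and 938 ± 181). Its log2 change in TE was 0.03 with an interval from -0.33 to 0.39, and in RF alone it was 0.01 (interval -0.42 to 0.44). These intervals leave room for changes of those sizes. The TE intervals may be too narrow, since the TE p-values were too small in simulated counts. EIF4G1 had 394, 522 and 409 in DMSO and 474, 368 and 285 in rapamycin, with a log2 change in TE of -0.22 (interval -0.69 to 0.25). EIF4G3 had 55.4, 39.1 and 48.0 in DMSO and 57.6, 39.5 and 66.2 in rapamycin, with a log2 change in TE of 0.19 (interval -0.40 to 0.78). In each scaffold the treatments overlap. Summed over the 10 members, RF was 1735, 1684 and 1905 CPM in DMSO and 2010, 1546 and 1480 CPM in rapamycin.

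**Figure D4:**
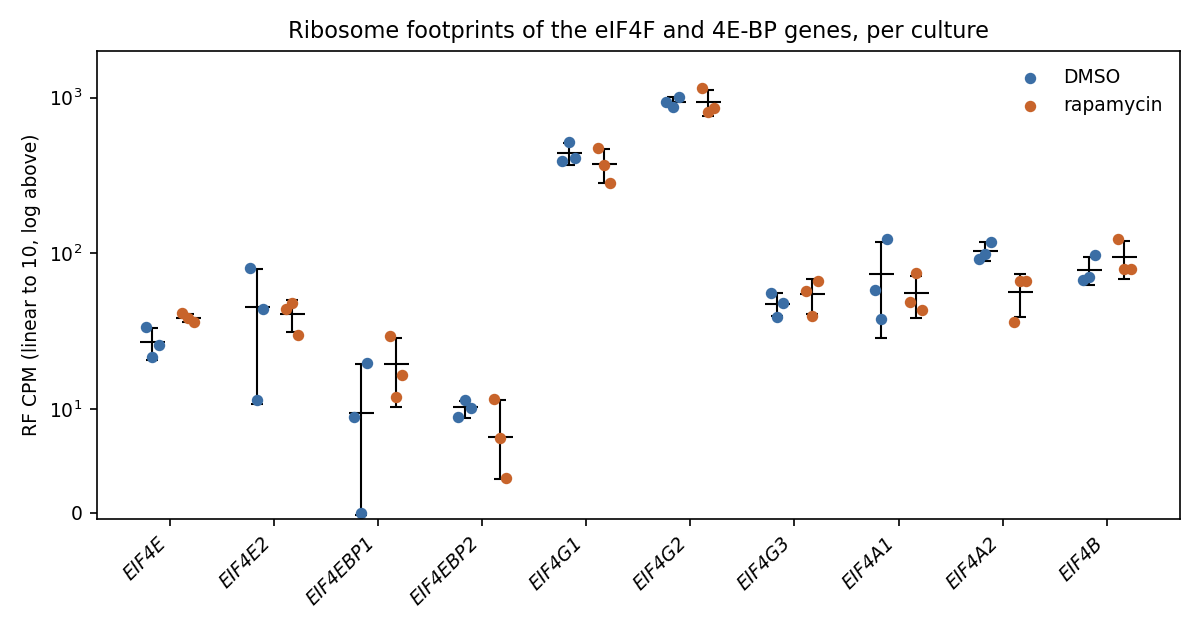
RF CPM of the 10 genes per culture (y axis, linear to 10 and logarithmic above), with 3 DMSO and 3 rapamycin points per gene and the mean ± SD in black. The groups do not overlap in EIF4A2, lower in rapamycin at 36.2 to 66.2 CPM, and in EIF4E, higher in rapamycin at 36.4 to 41.1 CPM.

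Total RNA of the members moved little. The log2 changes ran from -0.12 in EIF4A2 to 0.04 in EIF4EBP2, and no adjusted p passed 0.05. Both helicases had lower RNA CPM in every rapamycin culture than in every DMSO culture, where 6.61% of all genes did so. In the other direction, 0 members had higher RNA CPM in each, against 8.22% of genes. EIF4A2 had 392, 397 and 397 RNA CPM in DMSO and 381, 342 and 369 in rapamycin (log2 change -0.12, unadjusted p = 0.0147, adjusted p = 0.766, edgeR). EIF4A1 had 163, 160 and 153 RNA CPM in DMSO and 147, 150 and 147 in rapamycin (log2 change -0.10, unadjusted p = 0.0116, adjusted p = 0.766, edgeR). At an unadjusted p under 0.05 these were the 2 members lower in rapamycin, against 2.51% of all genes, with 0 members higher, against 3.32%. Both helicases kept an unadjusted p under 0.05 in 14 of 15 alternatives, and no adjusted p of theirs passed 0.05. In the remaining one, both cultures with the smallest RF libraries, DMSO replicate 1 and rapamycin replicate 3, were left out. There neither helicase reached an unadjusted p under 0.05. In FPKM, EIF4G2 was also lower in every rapamycin library, at 809, 809 and 792 in DMSO and 773, 783 and 780 in rapamycin. Its RNA CPM overlapped, at 2912, 3060 and 2920 in DMSO and 2891, 3024 and 2863 in rapamycin. The share of all genes with such an order in FPKM was not counted.

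Pairs of paralogues were compared in RF density within the same 6 cultures, and none of the 5 pairs passed an adjusted p of 0.05. A pair at the smallest exact p could not pass after adjustment unless most of the other pairs reached it too. That outcome therefore says little about the size of the differences. EIF4G1 had 8.06 times the density of EIF4G3 per coding kb (log2 3.01 ± 0.54, SD, n = 6), higher in 6 of 6 cultures, with an exact sign-flip p of 0.0312, the smallest that 6 cultures allow, and an adjusted p of 0.0781 over the 5 pairs compared. EIF4G1 had 0.248 times the density of EIF4G2, lower in 6 of 6 cultures, with the same exact p and adjusted p. EIF4A1 and EIF4A2 did not differ beyond the spread (log2 -0.33 ± 0.68, SD, n = 6, exact adjusted p = 0.391), nor did EIF4E and EIF4E2 (log2 -0.15 ± 0.77, SD, n = 6, exact adjusted p = 0.656). Over unique windows these pairs took the other sign, with log2 differences of 0.82 for EIF4A1 over EIF4A2 (5 of 6 cultures) and 2.04 for EIF4E over EIF4E2 (6 of 6 cultures). For EIF4EBP1 over EIF4EBP2 the log2 difference was 0.66 ± 1.33 (SD, n = 6). In TE per length, RF per coding kb over FPKM, EIF4A1 was below EIF4A2 in 6 of 6 cultures (log2 -1.76 ± 0.68, SD, n = 6). Only 30.7% of the EIF4A1 windows are unique, and over unique windows the log2 difference was -0.61, with EIF4A1 higher in 1 of 6 cultures. The FPKM of EIF4A2 lay mostly on transcripts not annotated as protein coding. Without length the sign turned to 0.97, and the low RNA count of EIF4A1 enters that ratio. Under the same limit, none of the 5 pairs passed an adjusted p of 0.05 in any of these TE measures.

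Other genes of cap-dependent initiation were looked up in a list of 20, of which 19 could be tested. These hold further cap-binding and 4E-BP proteins, helicases, the kinases that phosphorylate eIF4E, and poly(A)-binding and cap-binding cofactors. In TE, 0 of the 19 passed an adjusted p of 0.05. At an unadjusted p under 0.05, 1 gene was higher and 1 was lower, where 6.17% of all genes were higher and 6.42% lower. The median log2 change was -0.14, with 14 of 19 negative, against a median of -0.06 for all genes. The number of negative genes moved with the setting, from 11 of 19 in DESeq2's Wald test to 16 of 19 with TMM over all 12 libraries. The share of all genes with a negative change was not counted. The kinase MKNK2, which phosphorylates eIF4E, had a log2 change of 1.64 in TE (unadjusted p = 0.00315, adjusted p = 0.231, edgeR). The helicase DDX3X had -0.42 (unadjusted p = 0.0175, adjusted p = 0.303, edgeR). Next in order of p were PAIP1 at -0.59, the eIF4E transporter EIF4ENIF1 at -0.71 and PAIP2 at -0.57. PAIP1 and PAIP2 bind the poly(A)-binding protein, and the intervals of these 3 include 0. DESeq2's Wald test called MKNK2 higher and DDX3X lower.

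With each member's log2 TE centred on its own mean, the average was 0.09, -0.49 and 0.28 in DMSO and 0.23, 0.01 and -0.13 in rapamycin, lowest in DMSO replicate 2 and highest in DMSO replicate 3. The low value rests on EIF4EBP1 at -2.40 and EIF4E2 at -1.58, with 0 and 9 RF counts there. Over the other 8 members, which were picked out with the values in view, the average was 0.02, -0.11 and 0.23 in DMSO and 0.10, -0.05 and -0.18 in rapamycin. Among 6123 other genes with at least 100 RF counts, the profiles most like it were those of ARF5, LAMTOR2, ACAT2, PUS7 and SPR, with Pearson's r from 0.98 to 0.99 across the 6 cultures. Against the profile of the other 8 members, r of these 5 genes was 0.70 to 0.81. The r describes points that share libraries and depth, and it was picked as the highest of many.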

How the data were processed

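Both treatments of PANC-1 gave 3 RF and 3 total RNA libraries, grouped by their labels. The authors trimmed and filtered RF reads, aligned reads to GRCh37 with HISAT2 and deposited raw counts per protein-coding gene, made with featureCounts from reads with a unique alignment. Beside these counts, the authors deposited the TE ratio, the log2 fold change and the p-value that RiboDiff gave for their own comparison, which were not used here. They deposited FPKM of genes and isoforms from Cufflinks 2.2.1 (cuffnorm, per the labels), and the normalized fragment signal of each gene and isoform. Other versions are not given in the sources used here.

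Members, lists and tests were chosen with earlier results of these data known. Counts were tested with edgeR 4.0.16 in R 4.3.3, with TMM within each library type, and at least 10 RF and 10 RNA counts over the libraries. For TE, the fit over 12 libraries tested whether the treatment effect differed between RF and RNA. DESeq2 1.42.0, other filters (1 and 60 counts), joint TMM, blocks, leaving out each culture and limma-trend (3.58.1) on log2(FPKM + 1) or + 0.1 were alternatives. The edgeR tests were tested on simulated data. A prior count of 2 (0.5 as alternative) entered log2 TE. A paralogue count of 0 was set to 3. Coding lengths are those of the isoform with a complete coding sequence and the highest mean FPKM in GENCODE v44lift37, whose version differs from that of the authors. Python 3.11, pandas 2.3.3, scipy 1.17.1 and Biopython were used for the rest. Unique windows were 28-base coding windows with no exact copy outside the gene in GRCh37, on either strand. All 10 members were named, as were the 5 pathway genes with the smallest TE p and the 5 genes most like the members' mean profile. Protein sequences were not used here, and no sequence of EIF4EBP1 is shown.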

Additional observations from a re-analysis of the deposited data

How the results depend on the processing

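Under the alternatives, the adjusted counts moved and the members stayed uncalled, with the exception of EIF4A2 in DESeq2's Wald test of TE (1 member lower). That test called 685 genes higher and 622 lower in TE, 4 and 1 in RF, and 25 and 4 in total RNA. With at least 1 RF and 1 RNA count, 10 genes were higher and 10 lower in RF. The replicate block called 1 gene higher in TE, and 4 higher and 2 lower in RF, and the replicate numbers did not pair the cultures, since same-numbered cultures correlated negatively in their deviations from the group means. It changed no other call. Limma-trend on FPKM called 1 gene higher with either pseudocount. Leaving out 1 culture gave 0 to 65 higher and 0 to 331 lower in TE, 0 to 5 and 0 to 1 in RF, and 0 to 683 and 0 to 4 in total RNA, the largest in TE and total RNA without DMSO replicate 3. The cause was not tested.

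Members whose uncalled log2 change crossed 0 are given with their range over the cultures left out. In RF these were EIF4A1 (-0.73 to 0.23, positive without DMSO replicate 3), EIF4E2 (-0.54 to 0.55, with 0.09 without rapamycin replicate 3, 0.14 with the replicate block and 0.70 without the 2 smallest RF cultures) and EIF4G2 (-0.16 to 0.10, with -0.05 without DMSO replicate 2 and -0.0052 with the replicate block). In TE they were EIF4A1 (-0.72 to 0.44, positive without DMSO replicate 3), EIF4E2 (-0.27 to 0.59, with -0.06 without rapamycin replicate 2) and EIF4G2 (-0.15 to 0.14, with -0.06 without DMSO replicate 2 and -0.045 with TMM over 12 libraries). In total RNA they were EIF4E (-0.046 to 0.030), EIF4EBP1 (-0.040 to 0.029, with 0.025 without the 2 smallest RF cultures), EIF4EBP2 (-0.040 to 0.087), EIF4G2 (-0.041 to 0.0064), EIF4G3 (-0.0071 to 0.022, with -0.0082 under the 1-count filter and -0.017 in limma-trend) and EIF4G1 (-0.0048 under the 1-count filter and -0.0046 in limma-trend), and the listed PAIP1 (-0.077 to 0.0021). The paralogue differences that turned were EIF4A1 over EIF4A2 (0.82 over unique windows, and 0.97 in TE without length), EIF4E over EIF4E2 (1.01 with union exon length, 2.04 over unique windows, and 1.48 in TE over unique windows), EIF4EBP1 over EIF4EBP2 (2.51 in TE without length) and EIF4G1 over EIF4G2 (0.10 in TE without length). The change in the top isoform's share of EIF4E2 was -0.35 percentage points with normalized isoform signal.

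RF depth is the limit for the 4E-BPs, with 48 and 83 RF counts in all, and for EIF4E with 159. Chosen after seeing the data were the unique windows, the mean profile of 8 members and the fits without the 2 smallest RF cultures.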
